A study of Mus musculus with 4 samples.

Results

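The miRNAs described here are the striated muscle group of mouse: miR-1a, miR-1b, miR-133a, miR-133b and miR-206. They were followed through 4 small RNA libraries, 2 from control mice and 2 from stressed mice labelled Mdd. A deposited sequence of 18 nt or longer was taken as a member when its annotation named hairpins of these 5 genes (mmu-mir-1a, mmu-mir-1b, mmu-mir-133a, mmu-mir-133b and mmu-mir-206) and no other. This gave 59 distinct sequences out of 2783 with a miRNA label. They fell under 5 labels out of 389: miR-1a, miR-206, miR-133a, miR-133b and a joint label miR-133a/miR-133b for reads that match both hairpins. No read carried the name miR-1b, so 4 of the 5 genes had reads under their own name.

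The study profiled short non-coding RNA of sperm from C57BL mice after chronic unpredictable mild stress. Controls were left undisturbed, and Mdd mice met a changing daily stressor, among them a tilted or damp cage, noise, strobe light, restraint, isolation and shifted light cycles. The protocol names sperm as the source of the RNA, whereas the tissue fields read testis and testicular cells, and it gives a selection of RNA of 18 to 40 nt. The labels do not state whether the 2 libraries of a group are different animals, pools or repeats of one sample. The p-values below thus reflect the scatter among 4 libraries, and that scatter may be technical.

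A miRNA is cut from a hairpin precursor whose 5p and 3p arms can both yield a mature strand, and usually one arm dominates. Bases 2 to 8 of the mature strand, the seed, set which messenger RNAs it pairs with. miR-1 and miR-133 are transcribed together from shared loci and are abundant in heart and skeletal muscle, where miR-1 promotes differentiation and miR-133 is known for effects on myoblast proliferation. miR-206 is largely restricted to skeletal muscle and lies beside miR-133b. They are not known as germ cell miRNAs, so in a sperm or testis library their level is read as a sign of carry-over from other tissue.

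The mature strands held by the RefSeq table are shown to set out how the members relate, with the seed in capitals.
miR-206-3p: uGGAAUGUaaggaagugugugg
miR-133b-3p: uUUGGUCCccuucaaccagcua
miR-206-5p: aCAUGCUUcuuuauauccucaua
miR-1a-1-5p: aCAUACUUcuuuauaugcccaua
miR-133b-5p: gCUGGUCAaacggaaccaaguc
These 5 arms come from RefSeq on GRCm38.p6, all on the plus strand. miR-206-3p lies at chr1:20679055-20679076, miR-206-5p at chr1:20679017-20679039, miR-133b-3p at chr1:20682834-20682855, miR-133b-5p at chr1:20682797-20682818 and miR-1a-1-5p at chr2:180389057-180389079. The submitters' processing notes name the mm9 build, but the files hold no coordinates, so nothing was converted. In GENCODE M21 the hairpins of miR-206 and miR-133b are 3686 bases apart on chromosome 1; Mir133b is inside an exon of the long non-coding RNA Gm28653 and Mir206 overlaps such an exon in part. On chromosome 2 the hairpins of Mir1a-1 and Mir133a-2 are 9254 bases apart and overlap no other annotated gene.

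The most read miR-1a sequence in the files, of 22 nt, carries the same seed as miR-206-3p, at 7 of 7 bases. Over its whole length it matches miR-206-3p at 18 of 22 positions, and the differences are A11G, A17G, A21G and T22G (miR-1a base first, positions counted from 1 at the 5′ end). The passenger arms miR-206-5p and miR-1a-1-5p match at 20 of 23 positions, and their seeds CAUGCUU and CAUACUU are not the same. miR-133b-3p has the unrelated seed UUGGUCC. A11G and A17G set the 2 strands apart even in reads that lack their last 3 bases.

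Whole libraries differed in depth and makeup. They held 9706895 to 23806805 reads of 18 nt or longer, of which miRNA reads made up 0.395% to 1.57%, or 71902, 263748, 198947 and 94011 reads in control 1, control 2, Mdd 1 and Mdd 2. Levels are given as CPM, the count scaled by the library's total of these miRNA reads in the usual way. Copy numbers of genome-matched sequences peaked, past their first low point, at about 7, 10, 44 and 7, in the same order. These are called the usual copies. Reads thus cannot be taken as independent molecules, and intervals cover counting error only. A floor of 3 reads equals 41.7, 11.4, 15.1 and 31.9 CPM, and multiplied by the usual copies 292, 114, 663 and 223 CPM. Germ cell miRNAs were abundant in all 4 libraries, with reads for 16 of 18 on the list of these used below. Control 2 stood apart from the other 3 libraries: the germ cell miRNA miR-34b was at 47056 CPM there against 147898 to 205396 CPM elsewhere, and the erythroid miR-451a at 5608 against 45520 to 57508 CPM. Not every marker went that way: germ cell miR-449a was at 47936 CPM in control 2 against 32837 to 43755 CPM. The blood cell miRNAs miR-150 and miR-223 were also highest there, whereas miR-142a was at 87.2 CPM there and highest in control 1, at 362 CPM. The differences between group means and the fits of the members are therefore also given without control 2. Ratios to control 2, ranks by them, list sums and profile distances are given over all 4 libraries only.

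The members were a small share of miRNA reads in 3 libraries and a large one in control 2. They took 0.388% (95% Wilson interval 0.345 to 0.436) of miRNA reads in control 1 and 6.57% (6.48 to 6.67) in control 2. In Mdd 1 they took 0.149% (0.133 to 0.167) and in Mdd 2 0.0989% (0.0808 to 0.121). Control 2 alone held 96.3% of the 18006 member reads, although all 4 libraries held some. Both control values lay above both Mdd values, by 3.36 percentage points between the group means (3.48% ± 4.37 against 0.124% ± 0.0353, SD, n = 2 each). An exact two-sided permutation test gave p = 0.33, the smallest that 2 against 2 libraries allow. Without control 2 the difference was 0.264 points in the same direction. In bulk libraries fewer muscle cells and less RNA per cell cannot be told apart.

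**Figure D1:**
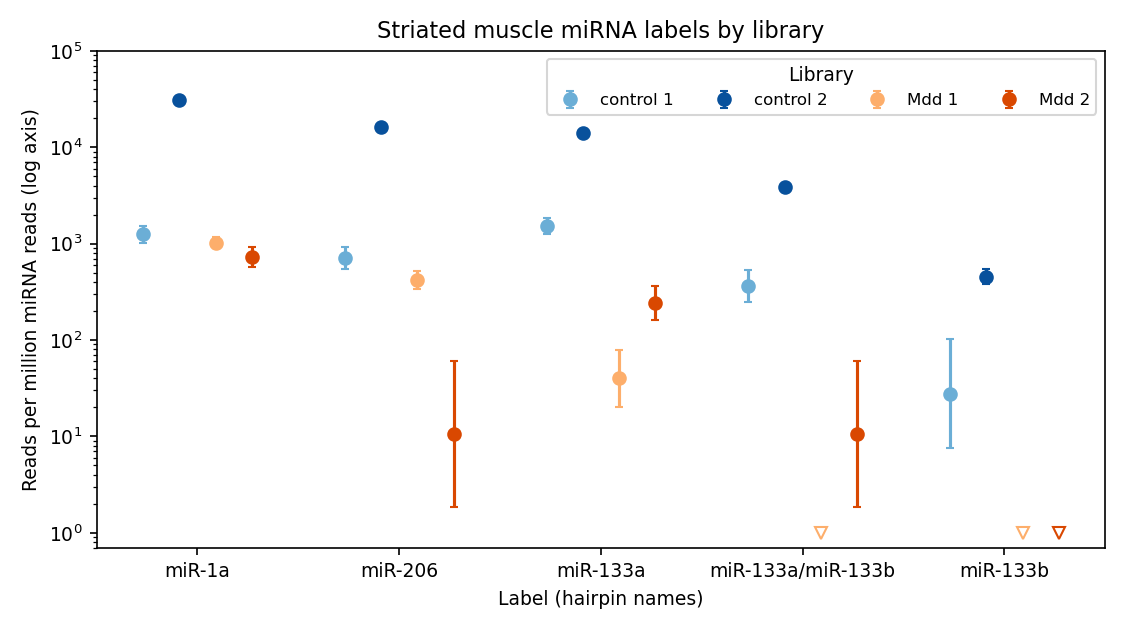
CPM of miRNA reads (log axis) of each member label in the 4 libraries, with 1 point per library, bars for the 95% Wilson interval (counting error only) and an open triangle at the bottom where no read was found. Control 2 is the highest point for each label, and the other 3 libraries sit between 0 and 1530 CPM.

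miR-1a, the muscle miRNA whose targets include regulators of cell growth, was the most read member in control 2, Mdd 1 and Mdd 2. It had 90 reads in control 1, 8190 in control 2, 204 in Mdd 1 and 68 in Mdd 2, or 1252, 31052, 1025 and 723 CPM. The controls lay above the Mdd libraries without overlap, but control 1 exceeded the mean of the Mdd libraries by only 1.43 times, whereas control 2 exceeded the next highest library 24.8 times.

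miR-206, the skeletal muscle relative with the same seed, had 51, 4297, 84 and 1 reads, or 709, 16292, 422 and 10.6 CPM, in the order control 1, control 2, Mdd 1, Mdd 2. Again no Mdd value reached a control value. Mdd 2 was under the floor of 3 reads, the 84 reads of Mdd 1 were under the 132 that the floor becomes with the usual copies, and control 2 was 23.0 times the next library.

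miR-133a, made from the same transcripts as miR-1a, was the most read member in control 1. It stood at 110, 3703, 8 and 23 reads, or 1530, 14040, 40.2 and 245 CPM. Control 1 was 10.7 times the mean of the Mdd libraries, a ratio that rests on few Mdd reads. The 8 reads of Mdd 1 are under the 132, and the 23 reads of Mdd 2 just over the 21, that the floor becomes with the usual copies. Reads that fit both miR-133a and miR-133b numbered 26, 1028, 0 and 1 (362, 3898, 0 and 10.6 CPM). miR-133b, the neighbour of miR-206, had 2, 120, 0 and 0 reads of its own (27.8, 455, 0 and 0 CPM). Its level in control 1 was itself under the floor, so no fold is given for it outside control 2.

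Not overlapping and lower in Mdd describes all 5 labels with reads, against 19% of all 389 labels, and the 4 labels that passed the filter on low counts, against 21.6% of the 236 that passed. The joint label had 0 and 1 reads in Mdd and so passed through the controls alone, which fixes its direction, and nothing is read from that count. edgeR's quasi-likelihood test over these 236 labels called 0 of them (0%) at an adjusted p under 0.05 in either direction, and so no member. The fold change was negative for 52.1% of the 236, with a median log2 value of -0.04. At an unadjusted p under 0.05 there were 11 labels, 9 of them lower in Mdd (3.81%). miR-133b did not pass the filter. DESeq2 called 5 of the 389 labels, all lower in Mdd (1.29%): 4 member labels and miR-378a/miR-378c.

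The fitted differences were large and uncertain. For miR-1a the log2 fold change of Mdd against control was -4.26 (SE 1.29, adjusted p = 0.442 with edgeR) and for miR-206 it was -5.27 (SE 1.69, adjusted p = 0.442 with edgeR). miR-133a gave -5.90 (SE 1.34, adjusted p = 0.158 with edgeR). The joint label, with 0 and 1 reads in Mdd, gave -8.87 (SE 1.91, adjusted p = 0.158 with edgeR), a value that depends on the prior count and is no bound. DESeq2 gave adjusted p of 0.0170, 0.0151, 6.42e-05 and 0.000154 for the same 4 labels. Without control 2 the edgeR values were -0.37, -1.50, -3.34 and -5.91, each with an adjusted p of 0.993, and neither tool called any label. DESeq2 gave -0.47, -1.60, -3.46 and -6.32 for the same labels without control 2, each with an adjusted p of 0.986. That fit sets 1 control library against 2, so its spread comes from the Mdd libraries and the lone control is assumed to vary like them. The DESeq2 calls were not made in it. miR-133a kept a negative value of over 3 log2 units there, but against a single control. The joint label had 0 and 1 reads in Mdd, so its sign was fixed and its value is no support.

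Other settings changed the number of member labels called, each lower in Mdd; the percentages count all labels called lower in Mdd. edgeR called 4 with all reads of 18 nt or longer as library size (2.08% of all labels tested), 4 without a filter (1.29%) and 4 at a mean CPM of at least 10 (1.53%). It called 1 with robust dispersion or with reads assigned by their first 16 bases (0.424% each), 3 with the replicate number as a block (1.69%) and 0 at 15 nt or longer (0.403%). With control 1, Mdd 1 or Mdd 2 left out it called 4, 2 and 4 (2.43%, 1.19% and 4.58%), and DESeq2 called 4, 3 and 3 (3.87%, 0.798% and 8.9%). Control 2 was the one library without which both tools called 0 labels (0%), in the fits with a lone control.

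**Figure D2:**
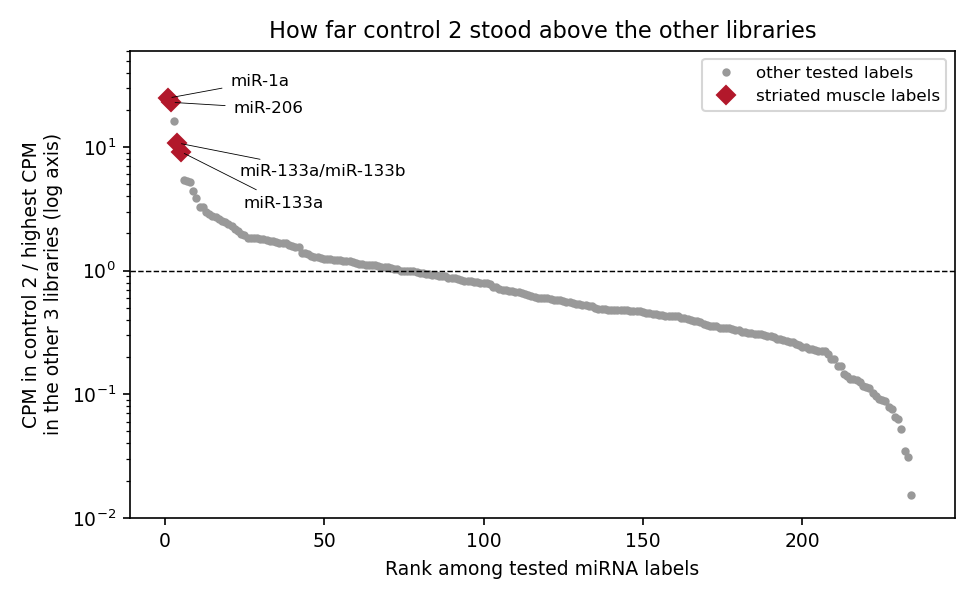
Each of the tested labels is 1 point, ordered by the ratio of its CPM in control 2 to the highest of the other 3 libraries (log axis; 2 labels with a ratio of 0 are not drawn). Members hold ranks 1, 2, 4 and 5, and the dashed line marks equal levels.

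Set against all labels, the ratio of control 2 to the highest other library had a median of 0.604 over the 236 tested. It was over 1 for 73 labels (30.9%) and at least 5 for 8 (3.39%). miR-1a ranked first at 24.8 and miR-206 second at 23.0. Next came miR-378a/miR-378c, of which miR-378a lies in Ppargc1b, a gene of energy metabolism, at 16.2. The joint miR-133 label followed at 10.8 and miR-133a at 9.18, and the other 3 labels above 5 were miR-195a, miR-29b and miR-675.

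The proportion between members changed between libraries. miR-1a to miR-206 stood at 1.76 in control 1, 1.91 in control 2 and 2.43 in Mdd 1, and at 68 in Mdd 2, where miR-206 had 1 read. The 84 miR-206 reads of Mdd 1 came from 1 sequence. They are under the 132 that the floor becomes with the usual copies, so this ratio too is loosely set. Against miR-133 in all (miR-133a, miR-133b and joint reads), miR-1a stood at 0.652 in control 1, 1.69 in control 2, 25.5 in Mdd 1 and 2.83 in Mdd 2. miR-133 was thus the larger part in control 1 and a small part in Mdd 1, where it had 8 reads against 204 of miR-1a. Those 8 reads are fewer than the usual 44 copies of 1 sequence in Mdd 1, so the ratio there is loosely set.

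**Figure D3:**
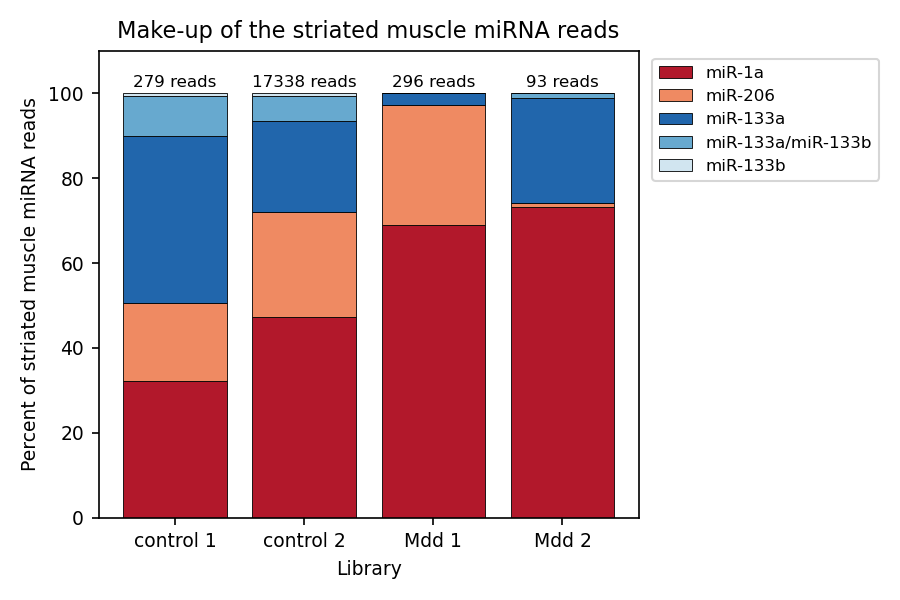
Makeup of the member reads in each library, as percent of that library's member reads, with 1 bar per library and its number of reads above it. miR-1a is 32.3% in control 1, 47.2% in control 2, 68.9% in Mdd 1 and 73.1% in Mdd 2, and the miR-133 labels together are the largest part only in control 1.

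Nearly every read came from the 3p arm. The 3p arm held 279 of 279 member reads in control 1, 17311 of 17338 (99.8%) in control 2, 296 of 296 in Mdd 1 and 93 of 93 in Mdd 2. Reads outside the 3p arm were found in control 2 only, which also held most reads: 5 for miR-1a, 8 for miR-133a, 14 for miR-133b and 0 for miR-206. At the share seen in control 2, such reads would not have been detectable at the depth of the other libraries.

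The 5′ ends were precise for miR-1a and miR-206 and mixed for miR-133. Starts at base 1 made up 100%, 99.8%, 100% and 98.6% of the 3p reads of miR-1a and miR-206 in control 1, control 2, Mdd 1 and Mdd 2. Of the miR-133 3p reads, 78 (56.5%), 2888 (59.8%), 7 (87.5%) and 24 (100%) began 1 base inside miR-133b-3p, in the same order. A start 1 base later moves the seed by 1 base. The group means differed by 35.6 percentage points with no overlap (p = 0.33, exact permutation test), and by 37.2 points without control 2, but the Mdd counts were 8 and 24 reads, and the Wilson interval in Mdd 1 ran from 52.9% to 97.8%.

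At the 3′ end miR-1a was mostly at its full 22 nt. This one sequence held 66 of 90 miR-1a 3p reads (73.3%) in control 1, 5966 of 8185 (72.9%) in control 2, 190 of 204 (93.1%) in Mdd 1 and 57 of 68 (83.8%) in Mdd 2. Reads 1 or 2 bases shorter made up 23.3%, 24.9%, 5.88% and 13.2%. The controls were nearly equal in both measures although control 2 had 24.8 times the level of miR-1a of the next library. The share at full length was 15.4 points higher in Mdd, without overlap (p = 0.33, exact permutation test), and 15.1 points higher without control 2. Counted down to 15 nt, Mdd 2 fell to 71.3%, under both controls. In Mdd 1 the reads 1 or 2 bases shorter numbered 12. They are fewer than the usual 44 copies of 1 sequence there, so its share is loosely set.

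miR-206 had a different end. The deposited reads are shown with the bases after position 19 in capitals, since the position of the end is what sets them apart.
19 nt: tggaatgtaaggaagtgtg
20 nt: tggaatgtaaggaagtgtgT
21 nt: tggaatgtaaggaagtgtgTG
22 nt, RefSeq miR-206-3p as DNA: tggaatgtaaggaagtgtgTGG
23 nt: tggaatgtaaggaagtgtgTGGT
24 nt: tggaatgtaaggaagtgtgTGGTT
The 19 nt read, 3 bases short of the RefSeq end, was counted 44, 3482, 84 and 1 times in control 1, control 2, Mdd 1 and Mdd 2. The 20 nt read had 0, 319, 0 and 0 reads and the 21 nt read 1, 227, 0 and 0. The full RefSeq strand of 22 nt had 0 reads in each library, while the 23 nt read, 1 base longer, had 6, 230, 0 and 0 and the 24 nt read 0, 12, 0 and 0. In control 2, 0 of 4297 reads at the RefSeq end allow a share of up to 0.0698%, or 0.698% with the usual copies taken into account. Ends from 4 bases short to 3 bases beyond the RefSeq end were each found in control 2, except the RefSeq end itself.

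The missing length ends in TGG, and so did few reads of any kind. Reads of 18 nt or longer ending in TGG made up 0.0610%, 0.102%, 0.0392% and 0.0377% of all reads in control 1, control 2, Mdd 1 and Mdd 2, the lowest of the 64 possible 3-base endings in each library. The median ending took 1.21%, 1.16%, 1.11% and 0.744%. Among miRNA-labelled reads, 0, 0, 1 and 0 ended in TGG. RefSeq has 46 of 1738 mature mouse arms (2.65%) that end in UGG. Of the 45 other than miR-206-3p, 6 had reads. A full-length read of these arms has the same ending, so their 0 full-length reads in each library restate its rarity and add no support to it. Of the 1624 arms with other endings, miRNAs outside this group, 321 had reads. Among their reads that ended 0 to 3 bases short of the arm's end, 52.7% to 55.6% were full length. By the same count, the UGG arms had 23.2%, 19.02% and 34.8% of reads 3 bases short in control 1, control 2 and Mdd 2. In Mdd 1 it was 0 of 3 reads, and the other arms had 2.13% to 3.19%. The 0 full-length reads of the UGG arms raise their share here, so this contrast in part restates the rarity of the ending. The 19 nt miR-206 read lacks the bases TGG. Why this ending was the rarest was not tested.

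**Figure D4:**
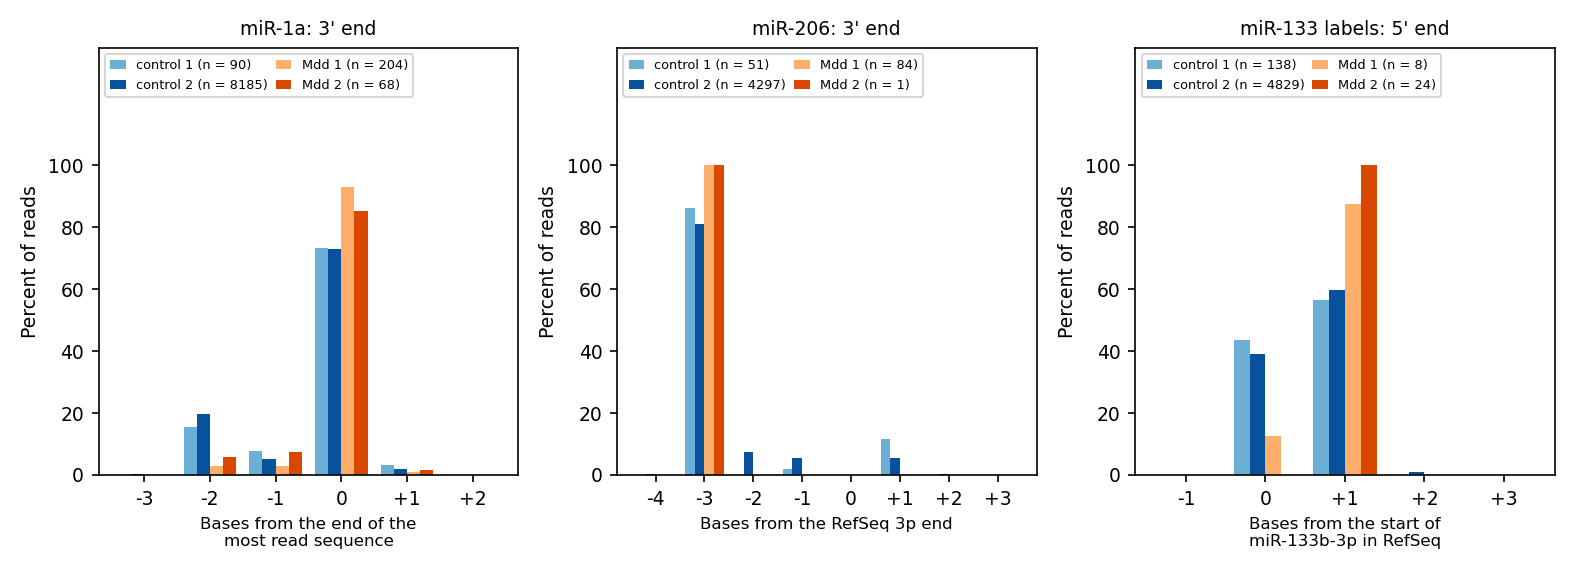
Percent of 3p reads by the position of the 3′ end (miR-1a and miR-206) or of the 5′ end (miR-133 labels), in bases from the reference given under each panel, with reads of any start in the miR-1a and miR-206 panels and the number of reads in each legend. miR-206 peaks at -3 with no bar at 0, and miR-133 reads at +1 range from 56.5% in control 1 to 100% in Mdd 2.

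The tests on single sequences followed the labels. Of the 59 member sequences 11 were among the 754 that passed the filter on low counts, and edgeR called none of the 754 (0%), member or not. The fold change was negative for 50.1% of them. At an unadjusted p under 0.05, 53 of the 754 were lower in Mdd (7.03%). Of the 11 member sequences 6 had at most 1 read over both Mdd libraries; they passed through the controls alone, which fixes their direction, so no count over the 11 is read as a result. Counting sequences lower in Mdd only, edgeR called 6 member sequences at a mean CPM of at least 10 (0.319% of all) and 4 with the replicate block (0.663%). With control 1, Mdd 1 or Mdd 2 left out it called 7, 3 and 1 (0.759%, 0.301% and 0.0799% of all sequences tested). Without control 2 it called no sequence lower (0%) and 4 of 966 higher, none of them a member. The 22 nt miR-1a sequence, at 66, 5966, 190 and 57 reads, gave a log2 fold change of -3.88 (SE 1.24, adjusted p = 0.534 with edgeR), and without control 2 it turned to 0.058. The 20 nt miR-1a sequence, at 14, 1608, 6 and 4 reads, gave -6.42 (adjusted p = 0.206 with edgeR), and -2.13 without control 2. The 22 nt miR-133a sequence beginning 1 base inside had 68, 2564, 7 and 23 reads and gave -5.33 (SE 1.32, adjusted p = 0.206 with edgeR), and -2.54 without control 2. The 23 nt miR-133a sequence had 20, 687, 1 and 0 reads and gave -8.46 (adjusted p = 0.155 with edgeR), and -5.90 without control 2. The 23 nt miR-133a sequence is among the 6 above, so its direction is not read. Per miRNA read, the other sequences named here were lower in both Mdd libraries than in control 2. The 20 nt miR-1a and the 22 nt miR-133a sequences were also lower than in control 1. They were named as the most read, with no share over the 754 beside them, so this is a description only.

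Reads close to a member were also found under other labels. A sequence of up to 1 mismatch to a member arm, or with a tail of up to 3 bases, was counted when its label was not a miRNA. Such reads numbered 156, 4543, 186 and 18 in control 1, control 2, Mdd 1 and Mdd 2, or 55.9, 26.2, 62.8 and 19.4 per 100 member reads. They came from 259 sequences, of which unannotated ones held 3192 reads and piRNA-labelled ones 1711. The group means differed by 0.0381 per 100 (p = 1, exact permutation test), with overlap, and by -14.8 per 100 without control 2.

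The most read of these sequences were 2 variants of miR-1a. The A17G variant, which differs from miR-1a at 1 of the 4 positions at which miR-206 does, held 21 of 111 reads in control 1 (18.9%) and 2041 of 10217 in control 2 (19.98%). In Mdd it had 0 of 204 and 0 of 67, which allow shares of up to 1.47% and 4.48%, or 64.7% and 31.3% with the usual copies. The T22C variant stood at 39.5%, 9.45%, 37.9% and 0% in control 1, control 2, Mdd 1 and Mdd 2, so the groups overlapped. Its 0 of 58 reads in Mdd 2 allow a share of up to 5.17%, or 36.2% with the usual copies. A miR-133a read with 1 added T and a piRNA label had 9, 518, 0 and 15 reads.

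Other lists were compared to see which moved with the members. The other striated muscle miRNAs, which include miR-499 of slow and cardiac muscle, had a summed level of 1154, 1903, 2076 and 2989 CPM in control 1, control 2, Mdd 1 and Mdd 2. That list was not highest in control 2, because miR-486a/miR-486b, also abundant in red cells, had 56, 19, 409 and 192 reads. miR-499 had 27, 471, 4 and 62 reads and was highest in control 2. Cardiac miR-208b had 6 reads, in control 2 only, and miR-208a was not seen.

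The smooth muscle, stromal and endothelial list was highest in control 2 as well: 103113, 213166, 90481 and 110030 CPM. Of its 9 tested labels 6 had a negative and 3 a positive fold change, and none passed the test; the median log2 value was -0.76, against -0.04 over all labels tested. Its endothelial miR-126a stood at 4089, 13323, 2332 and 872 CPM. The germ cell list ran the other way, at 338516, 171046, 386369 and 295774 CPM, as did the sum of the blood list, at 46967, 6548, 59920 and 50335 CPM. That sum is mostly miR-451a: of the 5 tested blood labels 2 had a positive and 3 a negative fold change (median log2 value -0.23). Control 2 had the top level of miR-223 and of miR-150, but not of miR-142a. The latter stood at 362, 87.2, 10.1 and 63.8 CPM in control 1, control 2, Mdd 1 and Mdd 2. Of 15 tested germ cell labels 14 had a positive fold change and none passed the test, with a median log2 value of 0.36. Over all 236 labels tested the fold change was negative for 52.1%. Within the germ cell list miR-34b stood at 177672, 47056, 205396 and 147898 CPM, in the same order, whereas miR-449a was highest in control 2. What part these differences in makeup have in the member levels was not tested. Epithelial miRNAs stood at 12058, 21073, 12255 and 23402 CPM and neural ones at 4409, 2787, 11159 and 3117 CPM, and neither followed the order of the members. The liver miRNA miR-122 stood at 389, 273, 5.03 and 0 CPM (28, 72, 1 and 0 reads), highest in control 1 and with both controls above both Mdd libraries.

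**Figure D5:**
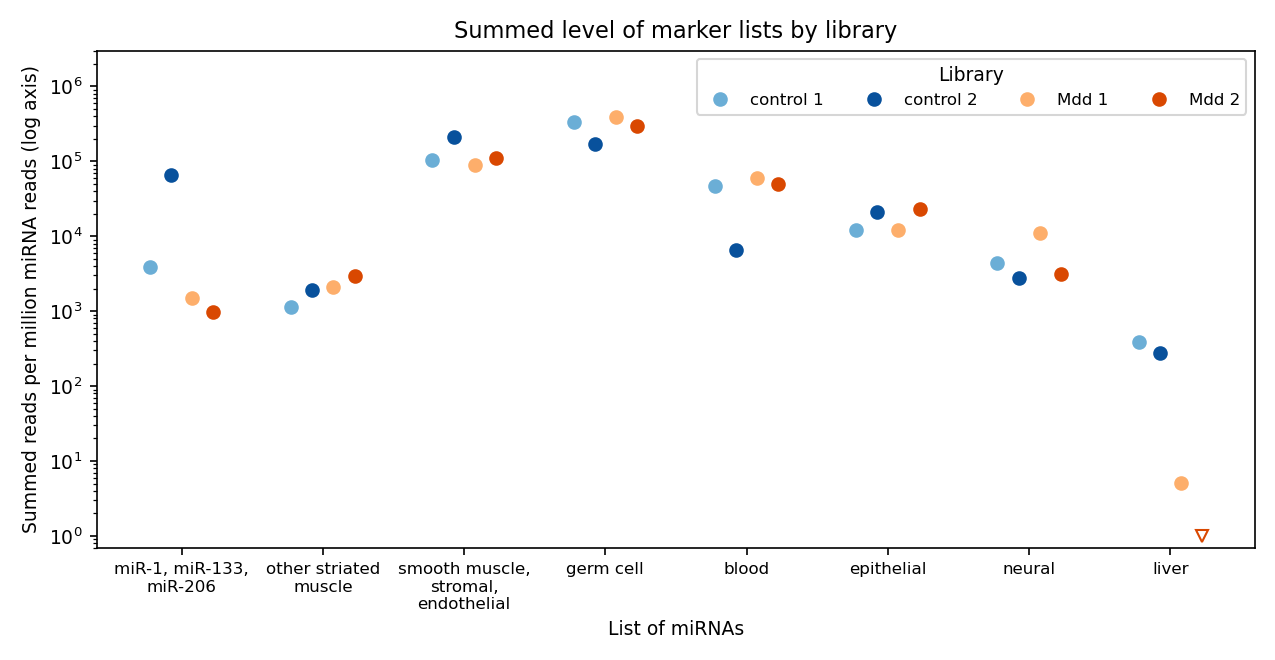
Summed CPM of miRNA reads for the members and for the lists for other cell types in each of the 4 libraries (log axis), with an open triangle where no read was found. Members are highest in control 2 at 65737 CPM, where the germ cell list is lowest at 171046 CPM.

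The labels whose pattern over the 4 libraries was nearest to the summed members were found by the root mean square difference of log2 CPM, centred on the mean of the libraries. The median over 232 tested non-member labels was 2.45. miR-675, made from the imprinted H19 transcript, was nearest at 0.71, with 6, 115, 0 and 0 reads. miR-378a/miR-378c followed at 0.79 with 8, 474, 0 and 0 reads, miR-126a at 1.12, miR-320 at 1.15 and miR-187 at 1.17. Among the members themselves miR-1a stood at 0.47 and miR-133a, the joint label and miR-206 at 1.33 to 1.47. Each member is part of the sum it is compared with, and miR-1a makes up 32.3% to 73.1% of that sum. Its small distance is thus in part built in. The distance rests on 4 libraries of unequal depth, and it is a description only.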

How the data were processed

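The authors deposited, per the file headers, 1 table per library that lists each distinct sequence with its raw read count, length and annotation. Counts were used as deposited. DESeq2 and mm9 are named in the submitters' processing notes, without a version. How reads were trimmed, aligned and annotated is not given in the sources used here. Sequences of 18 nt or longer were joined by sequence, annotations were joined over the files, copy numbers of hairpins were dropped and joint names kept.

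The quasi-likelihood test of edgeR 4.0.16 (R 4.3.3) was run on labels and on sequences after TMM scaling and filterByExpr. P-values are two-sided and adjusted by Benjamini-Hochberg over every row tested, with a threshold of 0.05. Single values were compared by an exact permutation test. Alternatives were RLE scaling, library size only, all reads as library size, DESeq2 1.42.0, other filters, robust dispersion, a minimum of 15 nt, annotation as deposited, merged labels, assignment by the first 16 bases, the replicate block and each sample left out. A version of the assignment by bases and DESeq2 with samples left out were added after seeing the data. The fits were tested on simulated data. Tables and permutation tests used scipy 1.17.1, pandas 2.3.3 and Python 3.11.15.

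The members and lists were chosen with earlier results of these data known. Named were every member label, the most read sequences of each arm, the 5 nearest non-member labels and up to 4 labels per list, with miR-223 of the blood list besides. miR-195a, miR-29b and the miR-1a variants were singled out after their values were seen. The mature strands are RefSeq's, and 5 member arms were matched by name.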

Additional observations from a re-analysis of the deposited data

How the results depend on the processing

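The fold change of the 4 tested member labels kept its sign in 81 of 81 alternatives run, while whether they were called depended on the setting. These alternatives refit the same libraries, and the few Mdd reads of the joint label fix its sign. The constant sign is therefore no added support. Of the tested member labels 0 were called with edgeR as reported, 0 with RLE scaling, library size only, 15 nt, deposited annotation or merged labels, 1 with robust dispersion, 1 with either assignment by the first 16 bases, and 4 with all reads as library size, DESeq2, no filter or a mean CPM of at least 10. All reads as library size moved the median log2 fold change of all labels from -0.04 to -1.10. With the replicate number as a block 3 were called; the deviations of same-numbered libraries from their group means correlated at -0.0362 over 236 labels, so these share only a number and are not treated as pairs. Leaving out each sample gave 0 to 4 with edgeR and 0 to 4 with DESeq2, and 0 was the count without control 2 with both. Why the counts differ between tools and filters was not tested. Of member sequences 0 were called as reported, with RLE scaling and with DESeq2, 6 at a mean CPM of at least 10, 4 with the replicate block, and 0 to 7 with a sample left out, 0 of them without control 2. With a sample left out, the 22 nt miR-1a sequence ranged from -4.92 to 0.058, the latter without control 2. The reads like members under other labels gave -21.7 to 21.8 per 100 with a sample left out, -14.8 without control 2 and -21.7 without Mdd 1, around 0.0381 as reported. The share of member reads differed by -6.45 to -0.264 points with a sample left out, and by -3.07 at 15 nt.

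Few member reads limit the Mdd side: labels other than miR-1a had at most 84 reads in either Mdd library, and miR-133b none. Total miRNA reads there, 198947 and 94011, were above the 71902 of control 1. Multiplied by the usual copies, however, the floor was 663 CPM in Mdd 1 and 223 CPM in Mdd 2, against 292 CPM in control 1. By that measure Mdd 1 was less sensitive than control 1, in spite of its greater read number. With 2 libraries per group the exact permutation test cannot go below 0.33, and 1 library holds nearly all member reads.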
